A study of Mus musculus with 8 samples.

Results

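In mouse embryonic stem cells, 3820 regions away from gene ends carried a peak of acetylated lysine 27 of histone H3 (H3K27ac) in both clones given 4-hydroxytamoxifen (4OHT) for 2 h and in neither clone left untreated. They were chosen by that pattern of peaks, so their presence after 4OHT is the rule itself and not a finding. Merging the peaks of the 4 lists that shared at least 1 bp gave 82792 union regions, of which 5130 (6.2%) were gained in this sense. A gained region was kept, and is called a gained distal region here, if it lay more than 1 kb from either end of every protein-coding gene and at most 100 kb from the nearest gene interval. This removed 828 regions at gene ends and 482 regions over 100 kb from a gene. The 3820 that remained were 6.64% of the 57563 distal union regions, and 4046 distal regions (7.03%) had the opposite pattern, termed lost.

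The 4OHT-treated cells received 250 nM 4OHT for 2 h, and the untreated cells received none. Both groups were E14tg2a cells, a mouse embryonic stem cell line of 129SV background, that stably carried cRAF-ErT2, in which 4OHT switches on a RAF kinase through an attached oestrogen receptor domain. Both were kept with serum, LIF and the GSK3 inhibitor Chir99021 at 2 uM, and for the last 24 h in medium listed as serum, LIF and 250 nM PD173074, which blocks FGF receptors. Clones a and b were assayed in each group, 1 library per clone and treatment, so the spread between libraries is the spread between these clones. No vehicle control is named in the labels and ERK activity is not among the data, so a response to 4OHT itself and one to RAF cannot be told apart.

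H3K27ac marks active promoters and enhancers, and away from gene ends it is widely used to chart enhancers, DNA elements that raise transcription of genes over a distance. RAF activates the kinases MEK and ERK, which phosphorylate ETS factors and induce the subunits of AP-1, a dimer of FOS and JUN proteins. In embryonic stem cells ERK signalling is known for preparing exit from naive pluripotency, and inhibitors of this pathway hold cells in the naive state. H3K27ac alone does not show that an element acts as an enhancer, and peaks were assigned to the nearest gene, which need not be the gene an element acts on.

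No genome sequence was used, so the sequences that could be read are those of RefSeq start windows (GRCm38.p6, which has the same coordinates as mm10), 300 bases from 250 before to 50 after an annotated start. Of the 3683 gained distal regions on chromosomes whose windows were read, 112 (3.04%) overlapped such a window. The matching shares were 1.28% of lost distal regions (50 of 3914) and 8.94% of distal regions called in all 4 libraries (1443 of 16147). The 126 windows belonged to 111 genes, 54 of them protein-coding genes and 57 long non-coding RNA genes. The 4 windows below lay wholly inside gained distal regions and are shown because 3 of them sit in groups of gained distal regions at Tmem132d, Pofut2 and Etv6, and the fourth is an internal start of Mark2, a kinase that acts on microtubule-associated proteins. Capitals mark the AP-1 motif TGANTCA and the ETS core AGGAAG, each read on both strands.
Gm33738 (chr5:128443238-128443537, plus strand): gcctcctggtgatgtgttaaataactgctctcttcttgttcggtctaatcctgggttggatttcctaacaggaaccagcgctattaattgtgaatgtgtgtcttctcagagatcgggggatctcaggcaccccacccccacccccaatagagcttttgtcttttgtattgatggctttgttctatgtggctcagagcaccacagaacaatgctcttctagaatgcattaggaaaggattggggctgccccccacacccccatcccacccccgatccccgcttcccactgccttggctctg
Gm35837 (chr10:77225337-77225636, plus strand): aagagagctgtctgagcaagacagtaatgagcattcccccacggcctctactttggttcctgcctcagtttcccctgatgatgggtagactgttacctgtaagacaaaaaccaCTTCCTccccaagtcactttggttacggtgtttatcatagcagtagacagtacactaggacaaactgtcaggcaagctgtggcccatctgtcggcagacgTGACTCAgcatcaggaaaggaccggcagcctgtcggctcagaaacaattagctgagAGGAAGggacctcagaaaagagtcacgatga
Gm17089 (chr6:134248761-134249060, minus strand): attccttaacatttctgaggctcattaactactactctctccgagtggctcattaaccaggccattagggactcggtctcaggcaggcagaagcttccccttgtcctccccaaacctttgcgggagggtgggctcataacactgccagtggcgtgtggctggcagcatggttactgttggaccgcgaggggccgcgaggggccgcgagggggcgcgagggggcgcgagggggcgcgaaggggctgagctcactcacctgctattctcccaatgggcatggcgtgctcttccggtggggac
Mark2 (chr19:7295398-7295697, minus strand): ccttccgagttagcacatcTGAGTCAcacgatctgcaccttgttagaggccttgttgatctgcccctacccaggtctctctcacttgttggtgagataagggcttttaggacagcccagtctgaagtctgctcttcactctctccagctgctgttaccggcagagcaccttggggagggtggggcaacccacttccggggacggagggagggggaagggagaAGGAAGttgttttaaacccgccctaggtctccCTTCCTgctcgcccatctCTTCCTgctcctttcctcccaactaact
The Pofut2 window held 1 AP-1 motif and 2 ETS cores, the Mark2 window 1 AP-1 motif and 3 ETS cores, and the windows at Tmem132d and Etv6 neither, though the Etv6 and Mark2 windows hold the longer ETS word CCGGAAG, on the reverse strand and not in capitals. The 4 windows are examples and not a sample of the 126, and Mark2 was not picked by the rules for named genes. Windows of Gm32817 near Mrtfb and Gm39988 near Specc1 also ranked high by peak score and are not shown. Gm32817 held 0 AP-1 motifs and 0 ETS cores, and Gm39988 held 0 and 3. Over all 126 windows, TGANTCA stood in 15 (11.9%), against 7.81% of the 32851 start windows of all genes. The share was 6.37% of the windows in distal regions called in all 4 libraries. AGGAAG stood in 41.3% of the windows in gained distal regions and in 35.4% of all windows. The longer ETS word CCGGAAG stood in 8 windows (6.35%), against 8.86% of all. The ESRRB word TCAAGGTCA and the CRE word TGACGTCA stood in none of the 126, against 0.423% and 1.79% of all windows. The KLF and SP word CCCCGCCC stood in 25.4%, against 17.6% of all, and the E-box word CACGTG in 9.52%, against 7.15%. Median GC content was 56.7% in the windows of gained distal regions and 52.7% in all windows. Windows in distal regions called in all 4 libraries were close to the gained ones in these 3 measures, with 23.0%, 8.59% and 57%. AGGAAG stood in 35.0% of them, CCGGAAG in 11.1%, TCAAGGTCA in 0.234% and TGACGTCA in 2.40%. A match is a run of letters and not a measured binding site, and these windows cover a small share of the regions. Of the 126 windows, 30 lay wholly inside a gained distal region, so a match in another window may lie outside it. Some windows, such as those of Gm33738, overlap one another.

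Hairpins of 4 microRNAs, short RNAs that repress messenger RNAs through the seed at bases 2 to 8, lay inside gained distal regions, which is 0.109% of the regions, against 0.161% of the distal regions called in all 4 libraries. The widest of these regions held Mir193b, 29.9 kb from Mrtfb, a coactivator of serum response factor, and was covered over 2144 bp in clone a and 1717 bp in clone b after 4OHT. A further region held Mirlet7e near Spaca6, and was covered over 251 bp in clone a and 536 bp in clone b. One arm of each is printed with the seed in capitals, and the seeds are not shared.
mmu-miR-193b-3p: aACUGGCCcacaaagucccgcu
mmu-let-7e-5p: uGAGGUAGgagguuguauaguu

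The 4 lists were of like size, with 59170 and 62764 peaks (51.5 and 50.7 Mb) in 4OHT clones a and b and 61203 and 63276 peaks (53.1 and 50.4 Mb) in untreated clones a and b. The lists hold no read counts, so depth is unknown, and a missing peak does not show that acetylation was absent. A further 4061 distal regions had a peak in 4OHT clone a alone and 6277 in 4OHT clone b alone. Peaks lay at Pou5f1, Sox2, Nanog, Esrrb, Klf4 and Zfp42, which define embryonic stem cells, in all 4 libraries. Of 6 fibroblast genes, Col1a2, Col3a1, Dcn, Lum and Thy1 had no peak within 1 kb in any library, and Col1a1 had 2 or 3 in each. Of the blood genes, Ptprc had none within 1 kb and Cd3e had 1 in each library.

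Gained distal regions were short and ranked low within their lists. Their median width was 537 bp, with quartiles of 398 and 777 bp, close to the 540 bp of lost distal regions. Distal regions called in all 4 libraries had a median of 1275 bp, but these merge peaks of more lists. Within single libraries, the median covered length was 391.5 and 428.5 bp in 4OHT clones a and b, against 927.5 and 855 bp. Classes were chosen by presence of peaks, which in part fixes these contrasts of width and rank, so they are a description. Each peak carries a score, the authors' own value with no stated scale, which was turned into a percentile within its list. The median percentile of gained distal regions was 31.1 in 4OHT clone a and 38.1 in 4OHT clone b. For lost distal regions it was 34.0 and 31.5 in untreated clones a and b. Distal regions called in all 4 libraries had medians of 65.9 and 65.2 in the 4OHT lists and 69.0 and 67.4 in the untreated lists. In clone a 847 gained distal regions (22.2%) and in clone b 1215 (31.8%) were in the upper 50% of the list by score, and 520 (13.6%) were there in both. Over the 3820 regions the clones' score percentiles correlated at a Spearman rho of 0.41, and the covered lengths at 0.51, where both clones share the merging of peaks into regions.

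**Figure D1:**
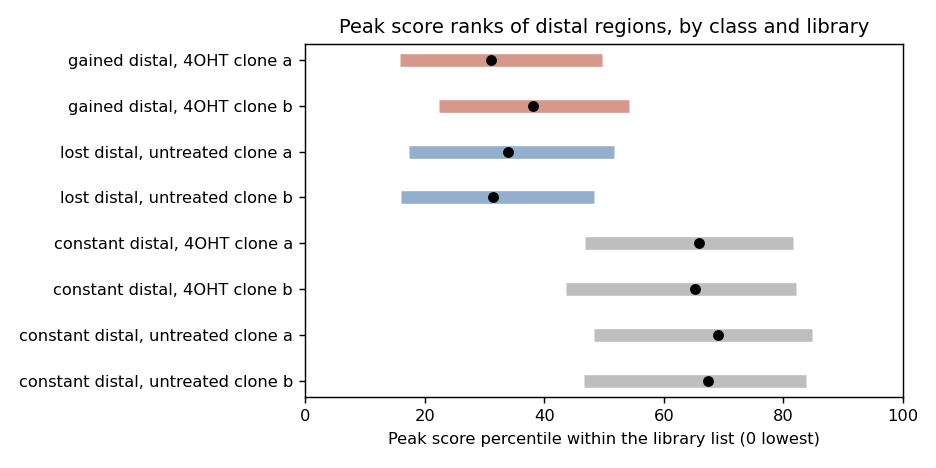
Peak score percentile (horizontal axis, within each library's own list) for gained, lost and constant distal regions (constant means called in all 4 libraries), with the median as a point and the quartiles as a bar. The medians of gained distal regions, 31.1 and 38.1, lie near those of lost distal regions and below those of constant ones, which are 65.2 to 69.0.

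Just inside the limit at gene ends was a region 1002 bp from Tmem125 (chr4:118539360-118539939) and just outside it one 998 bp from Shisa4. Just inside the other limit was a region 99.991 kb from Rragc, and just outside it one 100.728 kb from Rybp. Of all 3820, 314 lay within 2 kb of a gene end and 275 over 50 kb from a gene.

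Most gained distal regions lay inside a gene. Of the 3820, 2299 (60.2%, 95% Wilson interval 58.6 to 61.7) were inside the interval of a protein-coding gene. The share was 48.4% (46.9 to 49.9) among lost distal regions and 52.0% (51.2 to 52.7) among distal regions called in all 4 libraries. The intervals cover counting error only, and neighbouring regions are not independent, so the difference was not tested. The median distance to the nearest gene end was 15.8 kb for gained distal regions, 21.3 kb for lost ones and 15.7 kb for those called in all 4 libraries. Gene strand could be read for 1787 gained, 1531 lost and 6867 constant regions inside genes, and among these the median length of the host gene was 83.3 kb for gained distal regions, 113 kb for lost ones and 87.7 kb for those called in all 4 libraries. These gained distal regions lay at a median of 43.8% of the gene's length from its 5′ end, against 47.7% for the lost ones and 41.7% for those called in all 4 libraries.

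Some nearest genes of gained distal regions also had a gained region at their own ends. The 3820 regions were nearest to 2393 genes, and 212 of these (8.86%) had a gained region within 1 kb of an end. The share was 3.98% of all 21883 genes and 3.87% of the genes nearest to lost distal regions. A lost region at an end was found for 27 (1.13%) of the 2393, against 1.55% of all genes. It was found for 3.99% of the genes nearest to lost distal regions. Genes nearest to distal regions called in all 4 libraries had 4.62% with a gained and 2.32% with a lost region at an end. A region called in all 4 libraries stood at an end of 60.6% of the 2393 genes, against 47.5% of all genes, 56.3% of those nearest to lost distal regions and 61.1% of those nearest to distal regions called in all 4 libraries. Gene ends are outside the choice of members, but they come from the same 4 lists, and these shares are a description.

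Many gained distal regions came in groups. Within 10 kb of 1586 of them (41.5%) lay another gained distal region, whereas a lost distal region lay that close to 103 (2.70%). Lost distal regions were grouped in like measure, 39.9% of them having another lost one within 10 kb. Another gained distal region lay within 1 kb of 29.5%, and merging peaks within 1000 bp leaves 1854 gained distal regions in place of 3820. Joining neighbours within 10 kb gave 2892 groups, of which 2234 held a single region, 658 held at least 2 and 19 held at least 5. None of those 19 had a lost distal region in its span, and 10 had a region called in all 4 libraries there. Regions in groups of at least 2 ranked higher by score, with median percentiles of 38.2 in 4OHT clone a and 43.7 in 4OHT clone b, than single ones with 27.1 and 34.8. Of the 3820, 1189 (31.1%) had an untreated peak within 1 kb, and 1351 (35.4%) had none within 10 kb. The median score percentiles of these 1351 were 33.7 in clone a and 43.7 in clone b, against 29.2 and 31.9 for the 1189.

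The group with most members, 12 regions over 27.3 kb, lay inside Manba, which encodes the lysosomal enzyme beta-mannosidase (chr3:135515555-135542829). Peaks covered 14.5 and 13.3 kb of this span in 4OHT clones a and b, against 2.09 and 1.66 kb in untreated clones a and b. Those untreated peaks all lay in 2 regions called in all 4 libraries, and the gained distal regions stood on both sides of these. All 15 gained distal regions nearest Manba were inside the gene, 5.04 to 40.5 kb from its ends, and no lost distal region was assigned to it.

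A group of 8 regions lay between Pofut2, an O-fucosyltransferase of the endoplasmic reticulum, and the collagen gene Col18a1, with 6 of them 22.1 to 43.2 kb from Pofut2 (chr10:77205216-77237004). Peaks covered 9.76 and 10.9 kb of it in 4OHT clones a and b and 0.223 and 0.925 kb in untreated clones a and b. Nfib, a transcription factor of the nuclear factor I family, held a group of 7 inside the gene (chr4:82425644-82438785), covered over 6.91 and 8.54 kb in 4OHT clones a and b. In the untreated clones it was covered over 0 kb in a and 0.202 kb in b.

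The group at Phlda1, an immediate-early gene with a pleckstrin homology-like domain, held 7 regions (chr10:111539725-111559569). Peaks covered 4.61 and 8.13 kb there in 4OHT clones a and b, and none in either untreated clone. It began 31.1 kb from the gene, and with a pair of further regions the gained distal regions of Phlda1 reached 80.8 kb. Etv6, an ETS family repressor, held 7 regions inside the gene (chr6:134245938-134265180). Peaks covered 8.45 and 12.6 kb there in 4OHT clones a and b, and 0 and 0.298 kb in untreated clones a and b. A group of 7 at Bcl2l14 ties with those at Nfib, Phlda1 and Etv6 in number and ranked below them by mean score percentile. In each of the 5 groups described both 4OHT libraries had several times the covered length of either untreated library, which the choice of members fixes in large part.

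**Figure D2:**
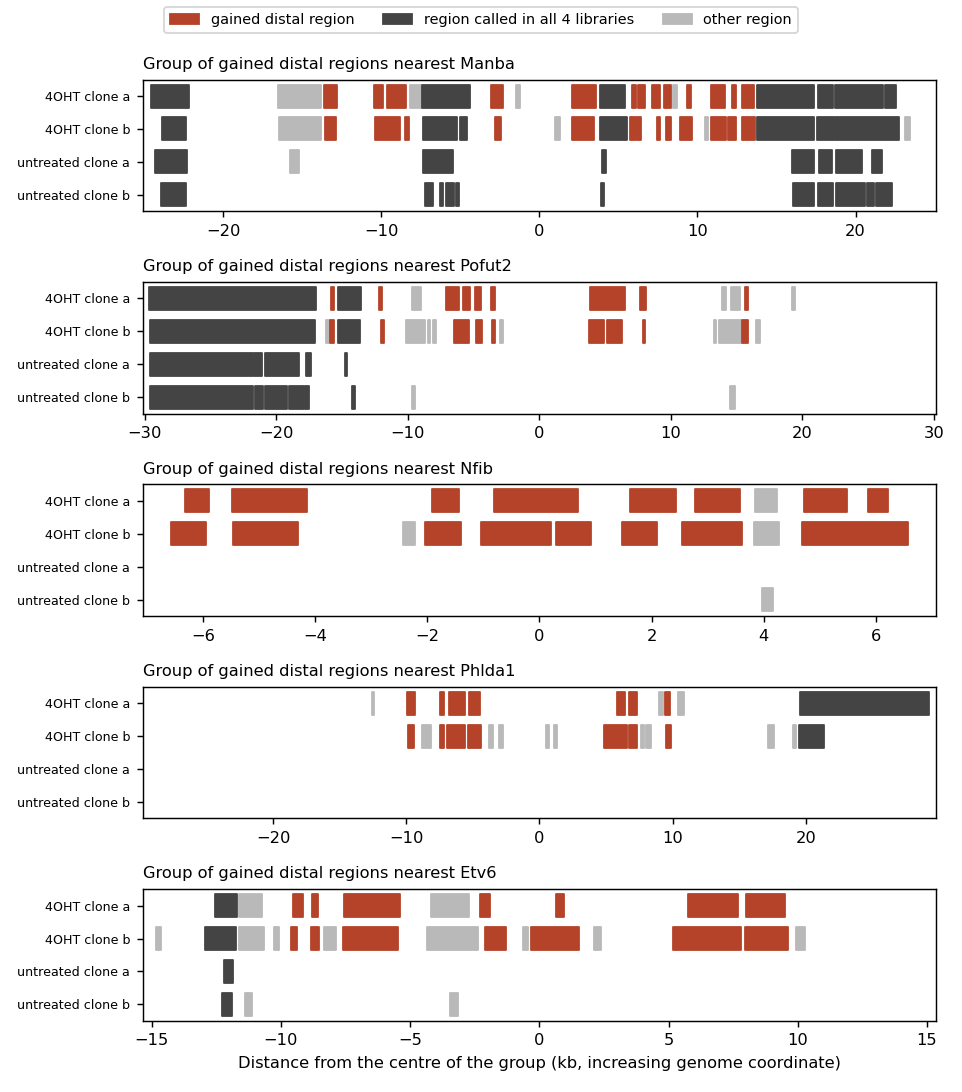
Peaks of each library along 5 groups with most gained distal regions (3 of them, with 7 regions each, tie with a group at Bcl2l14 that ranked lower by score), with any peaks up to 10 kb on either side, as distance in kb from the centre of the group. Bars are peaks, coloured by whether their union region was a gained distal region, was called in all 4 libraries or neither; at Nfib, Phlda1 and Etv6 the untreated libraries covered 0 to 0.298 kb of the group's span.

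Counted by gene, 809 genes had at least 2 gained distal regions, 321 at least 3 and 62 at least 5, and 516 genes had both gained and lost ones. After Manba with 15 came Tmem132d, a transmembrane protein gene, with 11, of which 4 were inside it. Bcl2l14, of the BCL2 family of apoptosis regulators, had 10, of which 1 was inside, and Tmem178b had 10, of which 9 were inside. Pitpnc1, a phosphatidylinositol transfer protein gene, had 10 inside a gene of 263 kb. Nfib, Phlda1, the kinase gene Map4k3 and Msi2, an RNA-binding protein of the Musashi family, had 9 each, and Pard3b, a cell polarity gene, had 8, as did Sema5b, Pofut2 and Itga6, which ranked lower by mean score percentile. Among the 10 genes from Manba to Pard3b, lost distal regions numbered 3 at Msi2, 1 each at Tmem132d, Pitpnc1 and Nfib, and 0 at the other 6. Per length of gene, Manba held 17.5 gained distal regions per 100 kb of gene, against 3.80 in Pitpnc1 and 2.38 in Msi2. Shorter genes came closer or higher, with 11.5 in Jam2, 10.8 in Cbx7 and 32.4 in Slc38a2, a gene of 12.3 kb.

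The gained distal region that ranked highest by score lay 84.4 kb from Tfap2c, a transcription factor of trophoblast and germ cells (chr2:172643045-172645982). It had the 91.9 percentile in 4OHT clone a and the 95.4 percentile in 4OHT clone b, and was 2938 bp wide. Of the distal regions nearest Tfap2c, 2 were gained and 3 lost. Inside Cubn, an endocytic receptor of the visceral endoderm, 2 neighbouring regions ranked among the first 10, with percentiles of 91.5 and 88.9 in 4OHT clones a and b for one and 84.1 and 92.7 for the other. They lay 40.9 and 39.9 kb from the nearest untreated peak. A region 23.6 kb from Ap1s3, a subunit of the clathrin adaptor AP-1 (which is unrelated to the transcription factor), had percentiles of 88.2 and 92.1 in clones a and b and stood 88.4 kb from the nearest untreated peak. Regions nearest Efr3b, Pitpnc1, Rasl11a, Sema5b and Etv6 had mean percentiles over both clones of 87.8 to 90.0. The one in Pitpnc1 was 0.211 kb from a region called in all 4 libraries, so a high rank did not go with isolation in each case.

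Among the 5 widest were regions in Tmem132d (4939 bp), Nav1 (4203 bp) and Timmdc1 (3220 bp), and near Gm41291 (3118 bp). Tmem132d's was covered over 2885 bp by 3 peaks in 4OHT clone a and over 4902 bp by 1 peak in 4OHT clone b. The region in Timmdc1, a mitochondrial assembly factor, was 0.043 kb from one called in all 4 libraries. The region in Nav1, a neuron navigator gene, was 32.5 kb from the nearest such region.

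Gene lists were read against the 6.64% of all distal regions that were gained and the 7.03% that were lost. The lists and members were chosen with results of these data known, so no list was tested. Of 200 distal regions nearest to 33 immediate-early genes, which respond to growth factors without new protein synthesis, 27 (13.5%) were gained and 10 (5%) lost. The 27 were at 13 genes. Phlda1, with 33 of the 200 distal regions, had 9 of the 27. Myc, the growth-promoting transcription factor, had 5, Arc had 2 and Klf6 had 2. Lost distal regions numbered 2 at Myc, 1 at Klf6 and 0 at Phlda1 and Arc. The 10 lost lay at 6 genes, and some of these had 0 gained. Lost ones there numbered 3 at Atf3, 2 at Btg2 and 1 each at Egr4 and Fosb. The 5 gained ones of Myc lay 1.63 to 65.1 kb from the gene. Together they were covered over 2.73 kb in 4OHT clone a and 1.90 kb in 4OHT clone b. Their score percentiles were 2.62 to 49.6 in clone a and 10.6 to 52.7 in clone b.

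Feedback inhibitors and ETS factors of the ERK pathway had 27 gained (10.4%) and 9 lost (3.46%) of 260 distal regions, at 14 genes for the gained. Spry4 and Spry2 encode Sprouty proteins, which restrain receptor tyrosine kinase signalling. Spry4 had 6 gained distal regions and no lost one, 1 inside the gene and the rest 1.77 to 21.5 kb away, covered over 5.11 kb in 4OHT clone a and 6.35 kb in 4OHT clone b. The widest measured 2402 bp with percentiles of 65.5 in clone a and 75.1 in clone b. Spry2 had 3, at 24.3 to 26.7 kb, and the 2437 bp one of these had percentiles of 57.7 and 80.1 in clones a and b. Etv4, an ETS activator induced by FGF signalling, had 3, of which 2 were inside the gene, and its widest of 2778 bp had percentiles of 69.8 and 73.3 in clones a and b. Elk3, an ETS factor that binds with serum response factor, had 3 of 353 to 488 bp.

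Actin cytoskeleton genes and targets of serum response factor had 16 gained (17.6%) and 3 lost (3.30%) of 91 distal regions. Fhl2, a LIM-domain coactivator, had 4, Actb, which encodes beta-actin, had 3, Gsn, which encodes the actin-severing gelsolin, had 3, and Vcl, which encodes vinculin of cell adhesions, had 2. The 3 of Actb lay 12.4 to 17.1 kb from the gene and were covered over 2.90 kb in 4OHT clone a and 2.85 kb in 4OHT clone b. Actb is also on the housekeeping list, where it gave 3 of the 6 gained among 67 distal regions (8.96%), against 4 lost (5.97%).

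Naive pluripotency genes had 43 gained (8.69%) and 27 lost (5.45%) of 495 distal regions. Of the 43, 15 were those in Manba, which encodes a lysosomal enzyme and was put on the list with its regions already known. Without Manba, 28 of 456 (6.14%) were gained and 27 (5.92%) lost. Esrrb, an orphan nuclear receptor of the naive state, had 6 gained and no lost distal regions, 5 of them inside the gene in a group. The highest ranked of these measured 1375 bp, had percentiles of 83.8 and 80.5 in 4OHT clones a and b, and was 0.096 kb from a region called in all 4 libraries. Jam2, a junctional adhesion molecule, had 6 inside the gene, and Klf5, a Krüppel-like factor of naive cells, had 5. Gained distal regions lay at 12 genes of the list and lost ones at 14. Prdm14 had 4 lost and 0 gained, Socs3 had 3 and 0, and Nanog and Klf2 each had 2 and 0. Lifr had 3 lost and 1 gained, and Tbx3 had 2 and 1.

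Lists for later fates and for chromatin genes are given next. Primitive endoderm genes had 7 gained (5.74%) and 10 lost (8.20%) of 122, with 3 in Cubn, 2 in the laminin gene Lamc1 and 1 each at Sparc and Lrp2. Formative and primed epiblast genes had 11 (8.66%) gained and 10 (7.87%) lost of 127, with 6 at Grhl2, an epithelial transcription factor, and 2 each in Cdh2, which encodes N-cadherin, and the DNA methyltransferase gene Dnmt3a. Trophoblast genes had 14 (10.1%) gained and 6 (4.32%) lost of 139, with 3 at Tfap2a and 2 each at Tfap2c and Plac1. Mesoderm genes had 6 (10.7%) gained and 4 (7.14%) lost of 56, with 1 each at Evx1, Hand1, Kdr and Cdx2. Neural genes had 8 (10.96%) gained and 7 (9.59%) lost of 73, with 2 in Nkx2-2 and 2 at Pax6. Genes of histone acetylation and Mediator had 2 (2.90%) gained and 3 (4.35%) lost of 69, and both gained were inside Crebbp, which encodes an acetyltransferase of H3K27.

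The list of genes of other cells, not expected in the culture, had 4 gained (21.1%) and 0 lost of 19 distal regions, and all 4 were nearest Ptprc, which encodes the leukocyte phosphatase CD45. They lay 2.78 to 29.6 kb from the gene and 122 to 149 kb from any untreated peak. The highest ranked had percentiles of 70.2 and 82.4 in 4OHT clones a and b. Ptprc itself had no peak within 1 kb in any of the 4 libraries, and the part of other cells in these regions was not tested.

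**Figure D3:**
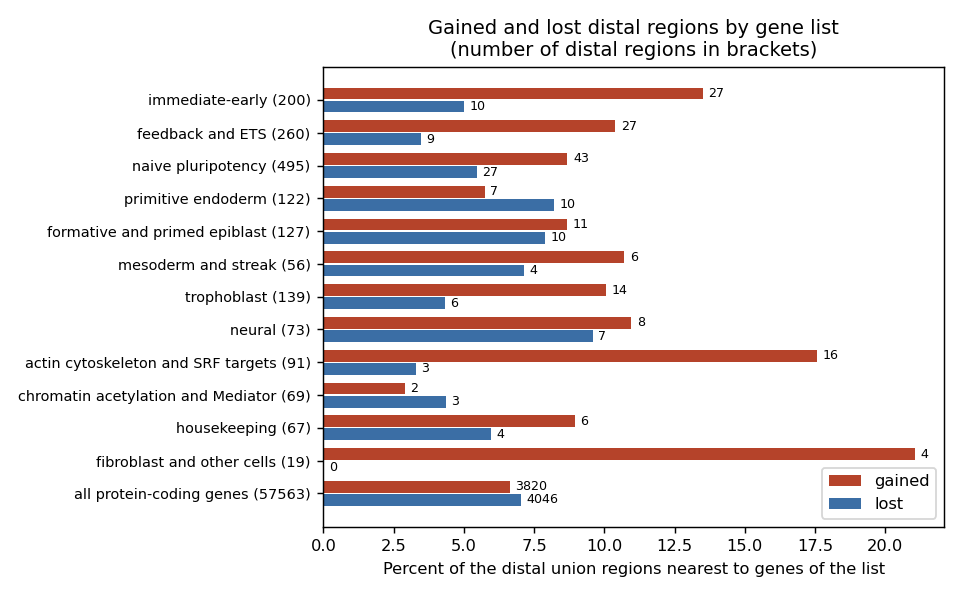
Percent of the distal union regions nearest to the genes of each list (horizontal axis) that were gained (red, above) or lost (blue, below), with the numbers of regions beside the bars. All genes together stand at 6.64% gained and 7.03% lost, and the list of other cells (4 of 19 regions), the actin list and the immediate-early list stand at 21.1%, 17.6% and 13.5% gained.

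The choice of members used presence of peaks and not the length of regions called in all 4 libraries. These constant regions were compared between treatments. Both kinds of region come from the same 4 lists, so the comparison is not independent of the choice of members. The counts that follow describe the lists and do not test the gained distal regions. Of 30131 constant regions, 2911 lay within 10 kb of a gained distal region, and these tended to be longer after 4OHT. Their median covered length was 1234 bp in 4OHT clone a and 1184 bp in 4OHT clone b, against 949 bp in untreated clone a and 893 bp in untreated clone b. The median log2 change in covered length (4OHT minus untreated) was 0.24 for these and 0.04 for all constant regions, and 76.7% of them had a change above 0, against 54.7% of all. In limma with Benjamini-Hochberg adjustment at 0.05, 0 of the 2911 were wider and 0 narrower, as for all constant regions (0% called either way). This fit also called none of the changes placed in simulated data, so its counts of 0 carry no information on whether lengths changed. At an unadjusted p under 0.05, limma gave 672 wider (23.1%) and 57 narrower (1.96%), against 8.36% and 8.46% of all constant regions. With clone as a factor, limma called 54 of the 2911 wider (1.86%) and 2 narrower (0.0687%), against 0.335% and 0.511% of all. The unadjusted counts of limma were 399 wider and 108 narrower without 4OHT clone a, 435 and 58 without 4OHT clone b, 650 and 28 without untreated clone a, and 619 and 37 without untreated clone b.

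The change was larger at short distance. Constant regions within 1 kb of a gained distal region (n = 867) had a median log2 change of 0.42, those 1 to 10 kb away (n = 2044) 0.17, those 10 to 50 kb away (n = 5133) 0.06 and those over 50 kb away (n = 22087) 0.01. The 3053 constant regions within 10 kb of a lost distal region had a median of −0.28, and the 150 near both kinds had −0.01. The gained distal and the constant regions come from the same libraries and peak calls.

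**Figure D4:**
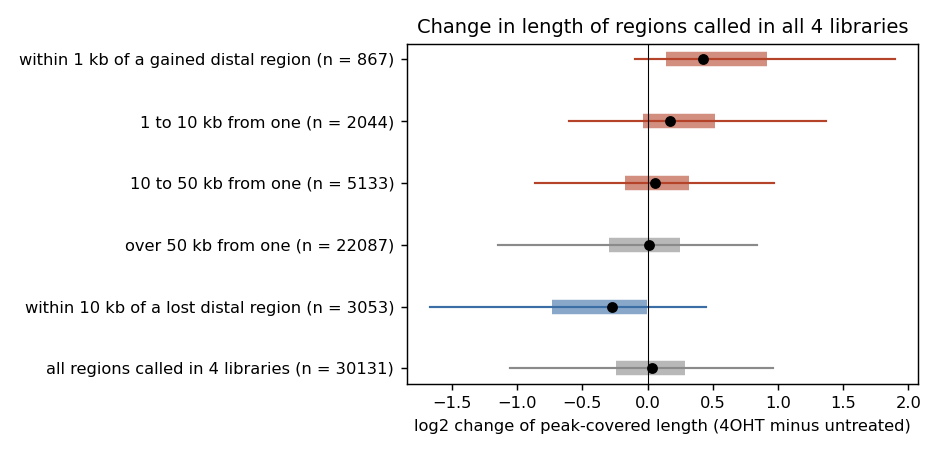
Log2 change in peak-covered length (4OHT minus untreated, horizontal axis) of regions called in all 4 libraries, by distance from gained distal regions and near lost ones, with the median as a point, the quartiles as a thick bar and the 5th and 95th percentiles as a line. The median is 0.42 within 1 kb of a gained distal region, 0.01 over 50 kb away and −0.28 near lost distal regions.

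The same length was summed per gene, over constant regions in the gene or up to 50 kb from it, and compared on log2(covered bp + 500) where the mean over libraries was at least 1000 bp. Of 14929 genes, limma called 2.19% longer and 1.83% shorter after 4OHT at an adjusted p under 0.05. Of the 2041 tested genes with a gained distal region, 96 (4.70%) were longer and 27 (1.32%) shorter, and of the 283 with at least 3, 30 (10.6%) were longer and 3 (1.06%) shorter. The median log2 change was 0.06 over all genes, 0.11 with 1 or more gained distal regions and 0.16 with at least 3. With clone as a factor the counts were 649 longer (31.8%) and 229 shorter (11.2%), against 20.5% and 13.5% of all genes. With 1 library left out, the median log2 change of genes with a gained distal region stayed above that of all genes. It was 0.08 without 4OHT clone a (0.04 over all genes) and 0.13 without 4OHT clone b (0.08). It was 0.13 without untreated clone a (0.07) and 0.08 without untreated clone b (0.04). With no filter on length, 8 of 2393 genes with a gained distal region were longer and 1 shorter, against 23 and 9 of all 21883. Centring the libraries on their medians gave 77 longer and 36 shorter, and 259 longer and 364 shorter over all genes, against 327 and 273 without centring. Windows of neighbouring genes share regions, so genes are not independent. The gained distal regions and these lengths come from the same lists, so the shares of genes with gained distal regions are a description.

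Among the named genes, limma called 4 loci longer and 1 shorter. The constant regions around Spry4 covered 24.4 and 23.0 kb in 4OHT clones a and b, against 5.18 and 10.1 kb in untreated clones a and b, a log2 change of 1.64 ± 0.28 (SE, limma adjusted p = 0.0430). Those around Cdh2 covered 3.25 and 3.78 kb in 4OHT clones a and b, against 1.15 and 1.57 kb in untreated clones a and b (1.12 ± 0.15, limma adjusted p = 0.0303). Around Pofut2 they covered 2.97 and 3.15 kb in 4OHT clones a and b, against 1.35 and 1.32 kb in untreated clones a and b (0.96 ± 0.11, limma adjusted p = 0.0234). In these 3 loci both 4OHT values stood above both untreated values, with the clones further apart in untreated Spry4 than elsewhere.

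Around Manba the constant regions covered 21.4 and 19.8 kb in 4OHT clones a and b, against 13.8 and 13.4 kb in untreated clones a and b (0.58 ± 0.08, limma adjusted p = 0.0342). Tfap2c went the other way, although the gained distal region ranked highest by score was assigned to it. Its constant regions covered 4.54 and 3.81 kb in 4OHT clones a and b, against 7.17 and 6.43 kb in untreated clones a and b (−0.65 ± 0.12, limma adjusted p = 0.0482), and that region, 84.4 kb away, is outside the window. With a window of 10 kb the log2 change of Tfap2c was 0.040. With no filter on length all 5 calls were lost, with limma adjusted p of 0.0873 to 0.124, and with a pseudocount of 100 bp that of Tfap2c was lost (limma adjusted p = 0.0505). The calls did not all hold with 1 library left out. Manba and Tfap2c lost theirs without any one of the 4 libraries, with limma adjusted p of 0.0663 to 0.0962 for Manba and 0.0502 to 0.138 for Tfap2c. Spry4 lost its call without either 4OHT library (limma adjusted p = 0.0667 without clone a and 0.0665 without clone b). Cdh2 and Pofut2 lost theirs without 4OHT clone b (limma adjusted p = 0.0687 and 0.0595).

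Other named loci rich in gained distal regions did not pass. Outside the named genes some loci as rich did pass. Nrp2 and Arntl, with 7 gained distal regions each, were called longer (limma adjusted p = 0.0167 and 0.0430). The log2 change of constant regions was 1.05 at Pard3b (limma adjusted p = 0.0574), 0.85 at Etv4 (0.0661), 0.38 at Etv6 (0.0907) and 0.59 at Myc (0.122). It was 0.26 at Phlda1 (limma adjusted p = 0.251), 0.05 at Nfib (0.784), 0.08 at Tmem132d (0.767) and −0.01 at Esrrb (0.963). With clone as a factor, limma's adjusted p was 2.14e-05 at Pard3b, 5.68e-05 at Etv4, 0.00236 at Etv6, 0.000125 at Myc and 0.0346 at Phlda1, all under 0.05, and 0.523 at Nfib, 0.430 at Tmem132d and 0.854 at Esrrb. Pard3b also passed in limma without untreated clone a (adjusted p = 0.00742), without untreated clone b (0.0324) and with a pseudocount of 2000 bp (0.0448). Ap1s3, Ptprc, Gsn, Nkx2-2, Kdr, Cdx2, Tmem178b and Evx1 had no constant region in their windows, so their gained distal regions stood with no region called in all 4 libraries within 50 kb of the gene.

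**Figure D5:**
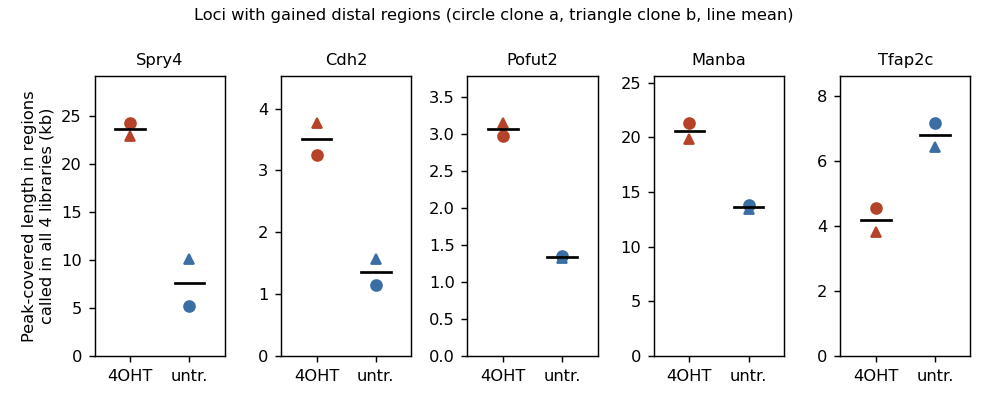
Peak-covered length in kb (vertical axis) of regions called in all 4 libraries around 5 genes with gained distal regions, for 4OHT on the left and untreated on the right, with clone a as a circle, clone b as a triangle and the mean as a line. Both 4OHT values are above both untreated values at Spry4, Cdh2, Pofut2 and Manba and below them at Tfap2c, where the 10 kb window gives a log2 change of 0.040.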

How the data were processed

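H3K27ac was assayed by chromatin immunoprecipitation with the antibody ab4729 and sequencing in 4 libraries, and the 4 inputs named in the labels are not analysed here. According to the submitters' processing notes, Bowtie2, bedtools and MACS2 were used on build mm10. Versions, thresholds and the use of inputs were not given in the sources used here. The authors deposited 1 peak list per library, in which the score of each peak is their own value with no stated scale, used here only to rank peaks within a list.

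Peaks were merged at 1 bp overlap, classed by the libraries that had a peak, and assigned to the closest gene among 21883 protein-coding ones in a RefSeq table (GRCm38.p6). Covered length was compared with limma 3.58.1 in R 4.3.3 (mean-dependent prior variance, Benjamini-Hochberg adjustment at 0.05, no clone term), on log2(bp) for regions called in all 4 libraries and on log2(bp + 500) for loci of at least 1000 bp, a scale that understates changes of short lengths. The procedure was tested on simulated data, where it called none of the changed regions and, for loci, more of the larger than of the smaller changes. The clone letters pair the treatments, and deviations of the clones from their group means correlated at 0.437 over regions and 0.600 over loci, so clone entered an alternative fit as a factor. The p-values of that fit reflect how unlike the treatment change was in the clones, with variance borrowed across features. Other analyses used Python 3.11.15 with pandas 2.3.3 and scipy 1.17.1.

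Named genes were the 10 with most gained distal regions (ties, as for the tenth, broken by mean score percentile), those of the 10 regions ranked highest by score and of the 5 widest, those at the 5 groups with most regions, and up to 4 per list for 12 gene lists. A locus and a marker that these rules name are not reported here. The members, the lists and the rule were chosen with earlier results of these data known. Alternatives changed the merging, the score filter, distances, the window, the pseudocount, the filter on length, centring, the clone term and the libraries used. Sequences came from RefSeq, with none from chromosome 18.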

Additional observations from a re-analysis of the deposited data

How the results depend on the processing

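Depth and input signal are unknown, so a gained distal region may lie just over a calling threshold in 4OHT libraries and just under it in untreated ones. The 3820 gained distal regions became 1854 when peaks within 1000 bp were merged and 1638 when only the upper 50% of each list by score was used. With a library left out there were 5299 to 10097, since fewer lists had to meet the rule. With no untreated peak within 1000 bp 2631 remained, with at least 50% of the region covered in each 4OHT list 3091, within 20 kb of a gene 3094 and over 5 kb from gene ends 2932. Without the 19 groups of at least 5 regions, an alternative chosen after seeing the data, there were 3701. The share inside a gene, 60.2%, was 57.9% in the upper 50% by score, 74.3% within 20 kb of a gene, 58.0% over 5 kb from gene ends, and 57.1% to 62.0% with a library left out.

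The replicate block (clone as a factor) gave 54 wider and 2 narrower constant regions near gained distal regions, against 0 and 0 in limma without it, and 649 longer and 229 shorter loci, against 96 and 27. Without the block, the fit of constant regions called none of the changes in simulated data, so its counts of 0 under other settings say nothing of stability. Loci numbered 61 longer with a window of 10 kb, 8 longer and 1 shorter with no filter on length, and 18 to 102 longer and 9 to 20 shorter with a library left out. With no filter on length, the calls of Manba, Pofut2, Spry4, Cdh2 and Tfap2c were lost.

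Over 15 named loci and 10 alternatives, 113 values kept their direction and side of the threshold, 18 lost and 10 gained a call, and 6 changed sign. Most of the 15 loci had no call to lose, and the lost calls were all at Manba, Pofut2, Spry4, Cdh2 and Tfap2c. The kept values are therefore no measure of how stable those calls were. No value was had at 10 kb for Bcl2l14, Pard3b and Phlda1, whose windows had under 1000 bp. With a window of 10 kb, Tfap2c was at 0.040 and Tmem132d at −0.019. With a library left out, Tmem132d ran from −0.088 (without untreated clone a, and −0.0030 without 4OHT clone b) to 0.249, Msi2 from −0.159 to 0.025, its positive value being without 4OHT clone b, and Nfib from −0.045 (without untreated clone b) to 0.151. The cause was not tested.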

Other observations

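Gained distal regions were spread over all chromosomes. Among the autosomes and chromosome X, the share of distal union regions that were gained ran from 4.90% on chromosome 13 to 7.66% on chromosome 17, and the share lost from 5.72% on chromosome 15 to 8.51% on chromosome 1. Beside the 5 groups described, groups of at least 5 gained distal regions also lay at Bcl2l14, Tmem132d, 2410004P03Rik, Tmem178b, Ap1s3 and Cdv3 with no peak of either untreated library in their span. At 2410004P03Rik, 6 regions were covered over 5.69 kb in 4OHT clone a and 6.90 kb in 4OHT clone b within 9.76 kb. At Cbx7, a subunit of Polycomb repressive complexes, a span with 6 gained distal regions was covered over 8.001 and 5.80 kb in 4OHT clones a and b, and over 1.12 and 0.842 kb in untreated clones a and b. These groups were singled out after their values were seen.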
